A study of Mus musculus with 6 samples.

Results

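Transcripts that mark Kupffer cells, the resident macrophages of the liver, and macrophages in general were followed in the livers of progeroid and control mice. The set held 10 genes chosen by name: Clec4f, Vsig4, Cd5l, Marco, Timd4, Adgre1, Csf1r, Cd68, Aif1 and Lyz2. The choice was made with earlier results of these data known. Each had 1 probe set annotated to it alone, so all 10 were found among the 19938 genes that the array names in this way, and all 10 passed the filter on dim probe sets. Both groups were female C57BL/6 mice aged 3 months and starved for 6 h. There were 3 mice with the genotype LmnaG609G/G609G (knock-in, below KI1, KI3 and KI5 by their replicate numbers) and 3 with unaltered Lmna (wild-type, below WT2, WT4 and WT6), each measured on 1 array, so that p-values measure the spread between mice. The G609G allele changes the splicing of Lmna, the gene of lamins A and C, and gives the shortened lamin A protein of Hutchinson-Gilford progeria. The labels name no promoter or Cre that would limit the allele to a cell type, so macrophages as well as hepatocytes carry it. RNA came from liver as a whole, in which fewer macrophages and less RNA per macrophage cannot be told apart.

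Kupffer cells line the liver sinusoids, take up particles, bacteria and aged red cells from portal blood, and recycle the iron of hemoglobin. They arise mostly from embryonic precursors, renew themselves in place, and depend on the receptor that Csf1r encodes and on its ligands. When they are lost, monocytes from blood can take their place and acquire their markers step by step, with Timd4 among the late ones. Clec4f and Vsig4 are close to specific for Kupffer cells within the liver, whereas Adgre1, Csf1r, Cd68, Aif1 and Lyz2 are shared with macrophages elsewhere and in part with monocytes.

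The array medians lay between 97.0 and 104 intensity units, and the values were used as deposited. The tissue label was matched by its markers, since the 13 measured hepatocyte genes summed to between 165596 and 185181 units in every liver. The 10 macrophage genes ranged from the 25.4th percentile of all probe sets by mean intensity (Aif1) to the 92.1st (Vsig4). As a guide to the signal of a transcript that should be absent, the Y-linked genes Kdm5d, Uty and Eif2s3y read between 12 and 34 units in these female livers. Intensities of different probe sets depend on their own probes, so levels are compared between livers and not between genes.

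The promoters of the set are given as sequence only. Whether they relate to the way the markers moved together from liver to liver, described below, was not tested. RefSeq (GRCm38.p6) gave a start site for 8 of the 10 genes, without an entry for Adgre1 and Csf1r. The 250 bases before each start were searched on both strands for the exact letters GAGGAA, a form of the site that the myeloid transcription factor PU.1 recognises. Other forms of that site were not searched for. It was found in 5 of the 8 (Vsig4, Cd5l, Marco, Cd68 and Aif1), and in 23.3% of all 32851 promoters in the table. The letters are a description of the sequence and do not show binding. The promoters of Aif1, which differed between the genotypes, of Marco, the only marker with a higher mean in knock-in liver, and of the scavenger protein gene Cd5l and the lysosomal gene Cd68 read as follows, 5′ to 3′ along the gene, with the matches in capitals.
Aif1, chr17:35176053-35176302, minus strand: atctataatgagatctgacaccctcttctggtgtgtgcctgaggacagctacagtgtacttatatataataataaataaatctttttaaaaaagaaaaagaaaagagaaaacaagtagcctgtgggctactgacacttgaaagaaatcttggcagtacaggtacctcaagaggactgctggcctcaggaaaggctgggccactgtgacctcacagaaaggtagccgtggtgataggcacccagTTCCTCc
Marco, chr1:120505025-120505274, minus strand: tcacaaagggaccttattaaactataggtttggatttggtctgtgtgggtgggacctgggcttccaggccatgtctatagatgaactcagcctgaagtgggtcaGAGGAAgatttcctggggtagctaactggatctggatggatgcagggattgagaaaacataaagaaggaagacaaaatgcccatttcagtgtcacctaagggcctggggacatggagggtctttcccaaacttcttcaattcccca
Cd5l, chr3:87357631-87357880, plus strand: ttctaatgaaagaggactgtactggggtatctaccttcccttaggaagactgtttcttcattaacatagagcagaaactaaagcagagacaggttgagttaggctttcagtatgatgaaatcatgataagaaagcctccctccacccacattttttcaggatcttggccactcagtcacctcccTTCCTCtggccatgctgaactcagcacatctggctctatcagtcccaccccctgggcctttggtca
Cd68, chr11:69666171-69666420, minus strand: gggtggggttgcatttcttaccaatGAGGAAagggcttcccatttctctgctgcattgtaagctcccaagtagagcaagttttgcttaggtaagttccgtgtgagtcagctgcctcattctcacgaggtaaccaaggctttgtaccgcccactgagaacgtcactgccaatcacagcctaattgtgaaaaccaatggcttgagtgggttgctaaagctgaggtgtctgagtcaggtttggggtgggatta
The matches started 7 bases before the RefSeq start in Aif1, 146 in Marco, 66 in Cd5l and 225 in Cd68. Clec4f, Timd4 and Lyz2 had no exact match to GAGGAA in this window, which does not show that they lack other forms of the site.

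The comparison asked which of these transcripts the genotype alters in liver. Of the 10 markers, 9 had a lower mean in knock-in liver, 2 passed the test as lower (Adgre1 and Aif1), and 0 passed as higher. Of the 26664 probe sets in the limma fit, 25.9% were called at a threshold of 0.05 on the Benjamini-Hochberg adjusted p, 10.9% as lower and 15% as higher. The median log2 change of the 10 markers, on the scale of log2(intensity + 16) and as knock-in minus wild-type, was -0.49, against 0.028 over all tested probe sets. At an unadjusted limma p below 0.05, 6 markers were lower, against 16.1% of all probe sets, and 1 was higher, against 21.7%. The intensities of the genotypes did not overlap for 5 markers, all lower in knock-in (Clec4f, Cd5l, Adgre1, Aif1 and Lyz2), where 17.2% of all tested probe sets did the same in that direction and 41.2% in either. In an exact two-sided permutation test, each of these 5 gave p = 0.1, the smallest that 3 mice against 3 allow, and the other 5 gave p = 0.2 to 0.7.

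**Figure D1:**
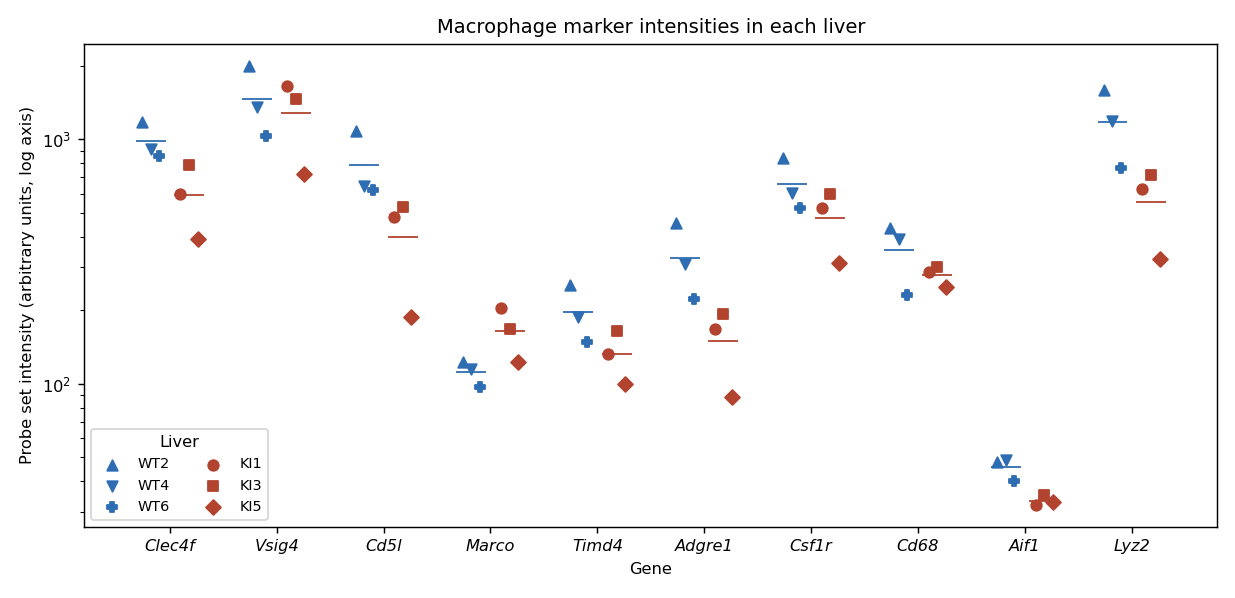
Intensity of each marker's probe set (log axis, arbitrary units) in the 3 wild-type livers (blue) and the 3 knock-in livers (red), with 1 symbol per liver and a line at each genotype's mean. KI5 is the lowest of the knock-in livers for 9 of the 10 genes, and WT6 is the lowest wild-type liver for all 10.

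Among surface receptors close to specific for Kupffer cells, Clec4f and Vsig4 gave different results. Clec4f, a C-type lectin receptor (probe set 10545731), read 1175, 914 and 859 in WT2, WT4 and WT6, and 599, 788 and 392 in KI1, KI3 and KI5. Every knock-in liver was below every wild-type liver. The means were 983 ± 169 and 593 ± 198 (SD, n = 3 each), and the log2 change of -0.75 ± 0.25 (SE; 95% interval -1.33 to -0.18) missed the threshold (limma adjusted p = 0.0595). Vsig4, a complement receptor that captures opsonised particles (probe set 10605848), read 1997, 1359 and 1031 in wild-type and 1658, 1457 and 723 in knock-in livers. The genotypes overlapped widely, with KI1 and KI3 above WT4 and WT6. Its log2 change was -0.22 ± 0.34 (95% interval -1.03 to 0.58; limma adjusted p = 0.698).

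The scavenger and uptake genes lay on both sides of 0. Cd5l, which encodes a protein secreted by macrophages that blocks their apoptosis and binds lipids and microbes (probe set 10492964), read 1084, 644 and 620 in wild-type and 483, 530 and 187 in knock-in livers. The groups did not overlap, but KI5 was 2.83-fold below the highest knock-in liver. The log2 change was -1.02 ± 0.39 (limma adjusted p = 0.0978). Timd4, a receptor for phosphatidylserine on dying cells (probe set 10375472), read 254, 187 and 149 in wild-type and 133, 165 and 100 in knock-in livers. The ranges overlapped through KI3, which lay above WT6, and the log2 change was -0.51 ± 0.22 (limma adjusted p = 0.129).

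Marco, a scavenger receptor with a collagen-like stalk that binds bacteria (probe set 10357261), stood opposite to the other 9. It read 123, 115 and 97 in WT2, WT4 and WT6, and 205, 167 and 123 in KI1, KI3 and KI5. The groups touched at 123, the value of both KI5 and WT2. The log2 change was 0.48 ± 0.17 (95% interval 0.082 to 0.89) and did not pass (limma adjusted p = 0.0790). It passed without KI5, the knock-in liver in which most markers were lowest (log2 change 0.66, limma adjusted p = 0.0189).

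Of the general macrophage genes, Adgre1 passed the test. Adgre1 encodes the adhesion receptor F4/80, the usual surface marker of mouse macrophages (probe set 10446282). It read 456, 308 and 222 in wild-type and 168, 193 and 88 in knock-in livers, so all knock-in values were lower. The means were 329 ± 118 and 149.7 ± 54.8 (SD, n = 3 each), or 2.09-fold lower in knock-in on the log2(intensity + 16) scale, with a log2 change of -1.06 ± 0.32 (SE; limma adjusted p = 0.0452). That call was lost without KI1, KI5, WT2 or WT4 (limma adjusted p = 0.0870 to 0.127). The log2 changes of Adgre1 in those fits were -1.17, -0.76, -0.81 and -1.08, in that order. Lyz2, the lysozyme of macrophages, monocytes and neutrophils (probe set 10372648), showed a difference of the same size that missed the threshold. It read 1586, 1192 and 766 in wild-type and 625, 712 and 325 in knock-in livers, without overlap, and the log2 change was -1.08 ± 0.34 (limma adjusted p = 0.0540). Without KI3 or WT6 Lyz2 passed (limma adjusted p = 0.0334 and 0.0345). The probe set of its close paralog Lyz1 lay between 165 and 188 in all 6 livers, and whether the Lyz2 probes also bind Lyz1 transcripts was not tested.

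Csf1r and Cd68 did not pass. Csf1r, the receptor for the growth factors CSF1 and IL-34 (probe set 10456071), read 837, 604 and 525 in wild-type and 522, 595 and 312 in knock-in livers, a log2 change of -0.47 ± 0.26 (95% interval -1.08 to 0.14; limma adjusted p = 0.238). KI1 and KI3 lay beside the lower pair of wild-type livers. Cd68, a glycoprotein of lysosomes and endosomes (probe set 10387536), read 435, 390 and 231 in wild-type and 286, 302 and 250 in knock-in livers, where WT6 was the lowest of all. Its log2 change was -0.27 ± 0.22 (limma adjusted p = 0.422), and without WT6 it was -0.54 and passed (limma adjusted p = 0.0376).

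Aif1, which encodes the calcium-binding protein IBA1 (probe set 10450484), had the smallest p-value and the dimmest signal of the set, just above the filter at the 25th percentile. It read 48, 49 and 40 in wild-type and 32, 35 and 33 in knock-in livers, with no overlap. The log2 change was -0.32 ± 0.074 (limma adjusted p = 0.0184), or 1.25-fold lower on that scale. The Y-linked Kdm5d read 28 to 34 in these females. The values of Aif1 in KI1 and KI5 (32 and 33) lay within that range, and that in KI3 (35) just above it. The change of Aif1 was therefore read close to the background of the array, and its knock-in values were not separated from the signal of Kdm5d. The other Y-linked genes, Uty (16 to 19) and Eif2s3y (12 to 13), read lower than every Aif1 value. How far Aif1 lay above the background of its own probes was not tested. The call of Aif1 was lost without KI1, KI5, WT2 or WT4 (limma adjusted p = 0.0538 to 0.0671). Its log2 changes in those fits were -0.30, -0.31, -0.29 and -0.28, in that order. Without any 1 of those 4 mice, neither Adgre1 nor Aif1 passed, and 0 of the 10 markers were called lower by limma in each of these fits, while 4 were called lower without KI3 (Clec4f, Adgre1, Aif1 and Lyz2) or without WT6 (Adgre1, Cd68, Aif1 and Lyz2). Over all probe sets, 2913 were called lower with all mice, and 1810, 2131, 1889 and 2393 without KI1, KI5, WT2 and WT4. Without KI3 and WT6 they were 3456 and 1981.

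**Figure D2:**
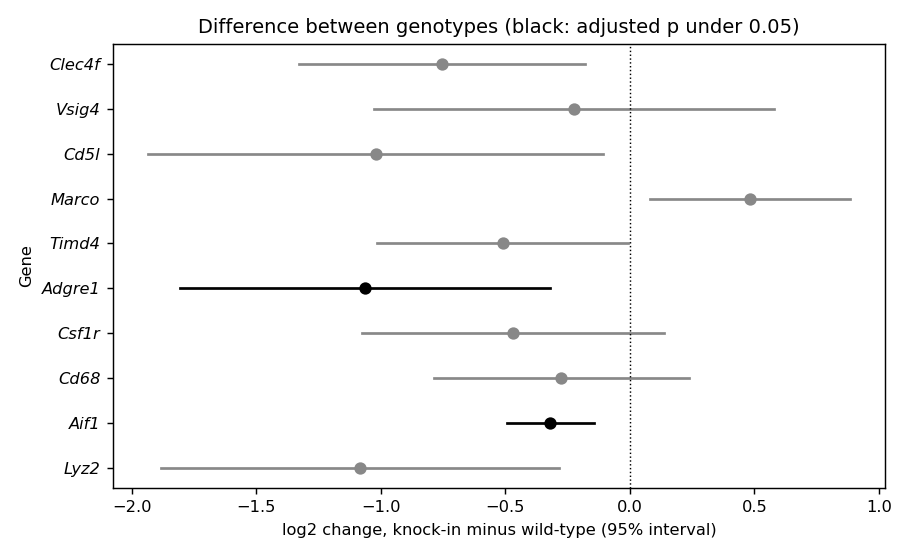
Log2 change of each marker (knock-in minus wild-type, on log2(intensity + 16)), with its 95% interval from limma and the dotted line at 0. Adgre1 (-1.06) and Aif1 (-0.32), in black, passed an adjusted p of 0.05, and Marco (0.48) is the only marker to the right of 0.

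The markers also differed between mice of the same genotype, and they did so together. WT6 was the lowest wild-type liver for 10 of 10 markers, against 28.7% of all tested probe sets, and WT2 the highest for 9 of 10, against 30.4%. KI5 was the lowest knock-in liver for 9 of 10, against 30.3%, and KI3 the highest for 8 of 10, against 37.9%. Both the place of KI5 and that of WT2 held for 9 markers, against 13% of all probe sets. This order was noticed after the values were seen, and the markers share the same 6 RNA samples, so the counts are a description. The exceptions were Aif1, with WT4 highest by 1 unit and KI1 lowest, and the knock-in order of Vsig4 and Marco, in which KI1 was highest. From the lowest to the highest liver, Adgre1 spanned 2.19-fold within knock-in and 2.05-fold within wild-type, and Lyz2 spanned 2.19-fold and 2.07-fold. Aif1 spanned 1.09-fold and 1.23-fold.

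The mean level of the 10 markers in each liver, with each gene centred on its mean log2 level over the 6 livers, overlapped between the genotypes. It was 0.62, 0.25 and -0.078 in WT2, WT4 and WT6, and -0.073, 0.032 and -0.74 in KI1, KI3 and KI5. WT6 thus lay beside KI1 and KI3. The median log2 change of the set was -0.33 without KI5 and -0.31 without WT2, and -0.52 without WT4 against -0.49 with all mice. It was -0.66 without KI3 and -0.65 without WT6. The arrays of these livers had medians close together, 97.0 for WT2 and 104 for KI5, and with each array centred on its median Adgre1 and Aif1 were still the 2 markers called.

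Relative to the other 9 markers of the same liver, Marco was higher in every knock-in liver. Its centred level minus the mean of the others was 0.70, 0.28 and 0.70 in KI1, KI3 and KI5, and -0.81, -0.50 and -0.37 in WT2, WT4 and WT6, a difference of 1.12 on the log2 scale. Cd5l (difference -0.55), Adgre1 (-0.60) and Lyz2 (-0.62) were lower relative to the rest in every knock-in liver. The other 6 overlapped, and Csf1r (0.060) and Timd4 (0.014) had nearly the same place within the set in both genotypes. These values are computed from the levels given above, so each difference between the genotypes follows from the log2 changes and is no separate result. No share over all probe sets was computed for this measure. The values describe unequal change among the markers and do not show that any of them stayed constant.

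**Figure D3:**
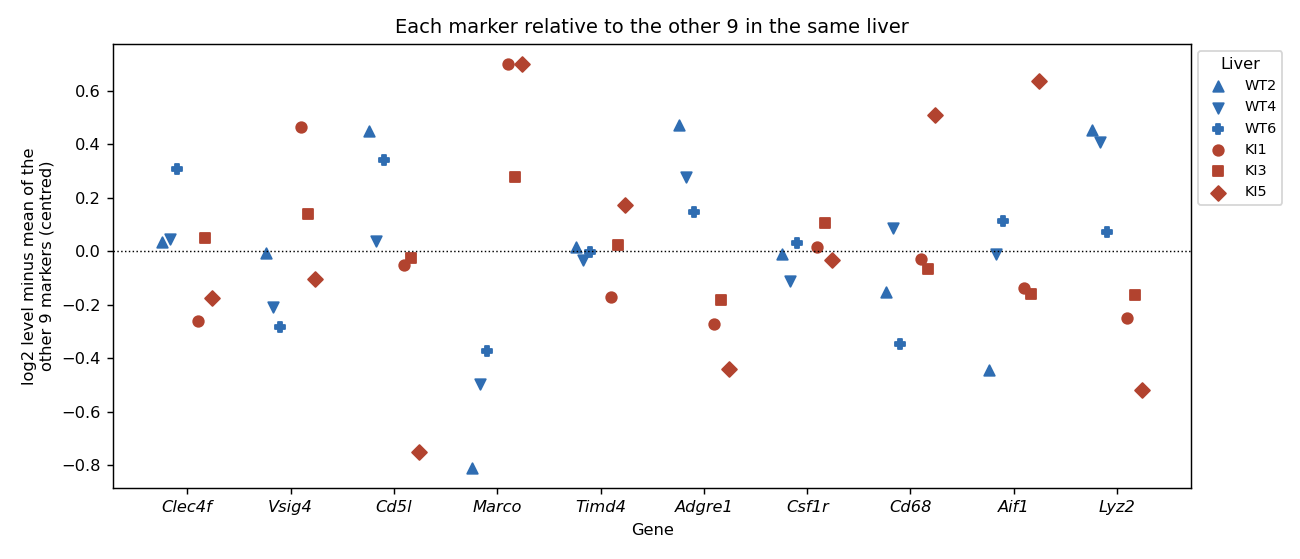
Centred log2 level of each marker minus the mean of the other 9 in the same liver, for wild-type (blue) and knock-in (red) livers, with the dotted line at 0. Marco is above 0 in the 3 knock-in livers (0.28 to 0.70) and below it in the 3 wild-type livers, while Cd5l, Adgre1 and Lyz2 show the opposite.

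Further genes of Kupffer cells did not move in 1 direction. Of 20 listed, 18 were tested, 4 fell, 2 rose and 12 did not pass by limma, with a median log2 change of -0.071. At an unadjusted limma p below 0.05, 5 were lower and 3 higher. The shares over all probe sets to set beside the calls of this and the following lists are 10.9% lower and 15% higher. At an unadjusted p below 0.05 they are 16.1% and 21.7%. These shares include probe sets without a single gene symbol. In the fit on probe sets with exactly 1 gene, 2645 of 17635 were called lower and 2641 higher. Folr2, a folate receptor of resident macrophages, fell from 469, 282 and 296 in wild-type to 171, 201 and 103 in knock-in livers, a log2 change of -1.07 ± 0.26 (limma adjusted p = 0.0225). The iron exporter ferroportin, Slc40a1, fell by 1.57 ± 0.37 on the log2 scale (limma adjusted p = 0.0192). Nr1h3, which encodes the nuclear receptor LXR-alpha that sustains Kupffer cell identity, fell by 0.55 ± 0.13, and Hpgd, which inactivates prostaglandins, fell by 0.80 ± 0.19. Slc40a1, Nr1h3 and Hpgd are also expressed by hepatocytes, so their signal is not that of macrophages alone. Pla2g7, which hydrolyses platelet-activating factor, rose from 199, 186 and 148 to 554, 404 and 294 (log2 change 1.13 ± 0.22, limma adjusted p = 0.00953). Id3, a transcriptional regulator required for Kupffer cell development, rose by 0.96 ± 0.21. Whole liver RNA does not tell which cells gave the rises of Pla2g7 and Id3. The calls of the 4 falls depended on single mice. Without KI1 or without WT2 none of the 18 genes was called lower by limma, and Id3 lost its call without KI1 or WT4. With each mouse left out in turn, the log2 changes of the 4 genes stayed below 0. They were -1.25 to -0.82 for Folr2, -1.99 to -1.17 for Slc40a1, -0.67 to -0.45 for Nr1h3 and -1.02 to -0.64 for Hpgd. Calls also became fewer over the whole array, where 1810 probe sets were called lower without KI1 and 1889 without WT2, against 2913 with all mice. Slc40a1, Nr1h3 and Hpgd were also lost without WT6. Nr1h3 was further lost without WT4, and Hpgd without KI5. Pla2g7 passed with each mouse left out in turn, and the median of the list ran from -0.18 without KI3 to 0.015 without KI5. Clec1b, a lectin receptor, and Cd163, the hemoglobin scavenger receptor, had higher means in knock-in (log2 changes 0.26 ± 0.14 and 0.37 ± 0.22) that did not pass (limma adjusted p = 0.213 and 0.266).

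Of 30 genes shared by macrophages in general, 23 had a log2 change below 0, 3 fell, 2 rose and 25 did not pass by limma, with a median of -0.22. At an unadjusted limma p below 0.05, 6 were lower and 2 higher. Sirpa, the inhibitory receptor that recognises CD47, fell from 625, 487 and 422 to 247, 334 and 208 (log2 change -0.93 ± 0.20, limma adjusted p = 0.0137), a call lost without KI1. Fcgr2b, the inhibitory Fc receptor that sinusoidal endothelium also carries, fell by 0.50 ± 0.11, a call lost without WT2 or WT6. The antigen presentation gene Cd74 fell by 1.17 ± 0.35 (limma adjusted p = 0.0476), a call that held only without KI3 among the fits that left a mouse out and that was also lost with no filter, with a robust prior and with the eBayes trend left out. Cd14, the co-receptor for lipopolysaccharide, rose from 78, 88 and 87 to 237, 287 and 311 (log2 change 1.55 ± 0.11, limma adjusted p = 0.000360) and passed with each mouse left out. Which cells gave the rise of Cd14 cannot be told from whole liver RNA. The integrin gene Itgam rose by 0.33 ± 0.081, a call lost without KI1, KI5, WT4 or WT6. The median of the list was -0.036 without KI5 and -0.037 without WT2. Without KI3, 6 of the genes fell, and without KI1 or WT2 1 did. The order of the livers in this list was that of the 10 markers, with WT2 highest among wild-type for 27 of 30 and KI5 lowest among knock-in for 24 of 30. In the list of further Kupffer cell genes these counts were 14 and 13 of 18. They were 8 and 9 of 13 for hepatocyte genes, and 9 and 8 of 14 for stellate cell and fibroblast genes. The places of WT2 and KI5 were thus not limited to macrophage genes. For sinusoidal endothelium the counts were 5 and 3 of 15. WT6 was the lowest wild-type liver for 21 of the 30 genes, 2 of 13 hepatocyte genes and 4 of 14 stellate cell and fibroblast genes.

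The growth factors of macrophages and the signals of their niche were measured beside Csf1r. Of 12 listed genes, 11 were tested, 2 fell and 0 rose by limma, and at an unadjusted p below 0.05 these counts were 2 and 1. The median log2 change was 0.011. Csf1, a ligand of the receptor, fell from 297, 310 and 249 in wild-type to 158, 231 and 166 in knock-in livers (log2 change -0.60 ± 0.16, limma adjusted p = 0.0279). That call was lost without KI1, KI5, WT2 or WT4. Il34, the other ligand, had a log2 change of 0.0034 ± 0.11 (limma adjusted p = 0.989). Cebpa, a transcription factor of both myeloid cells and hepatocytes, fell by 1.02 ± 0.13 (limma adjusted p = 0.00190). Without WT6, 1 gene of this list was called higher.

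Lysosomal and uptake genes, most of which hepatocytes and endothelium express as well, changed in both directions. Of 21 tested, 6 fell, 2 rose and 13 did not pass by limma, with a median log2 change of -0.20. At an unadjusted limma p below 0.05, 9 were lower and 3 higher. Lipa, the lysosomal acid lipase, fell from 4327, 4135 and 4219 to 1527, 2331 and 1194 (log2 change -1.37 ± 0.22, limma adjusted p = 0.00431). Gas6, a bridging ligand for apoptotic cells, the membrane protein gene Lamp1, the protease gene Ctsb, the hexosaminidase gene Hexa and the scavenger receptor gene Stab2 were the other 5 that fell (log2 changes from -0.65 to -0.37). The protease gene Ctsl and the lipoprotein receptor gene Scarb1 rose, by 1.15 ± 0.16 and 0.91 ± 0.12. The count of genes that fell was 9 without KI3 and 3 without KI1, WT2 or WT6. The calls of Ctsb and Hexa were each lost in 4 of the 6 fits that left a mouse out, and that of Stab2 in 3. The median of the list was -0.059 without KI5.

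Genes of monocytes and of macrophages recruited to injured liver were mostly dim. Of 17 listed, 10 were tested, 1 rose, 0 fell and 9 did not pass by limma, with a median log2 change of 0.069, and at an unadjusted p below 0.05 2 were higher and 0 lower. The gene that rose was Cd9, a tetraspanin of many cell types (log2 change 0.94 ± 0.10, limma adjusted p = 0.00130). The monocyte receptor gene Ccr2 lay under the filter. Among 16 tested genes of macrophage activation, 2 rose and 0 fell by limma, with 3 higher and 1 lower at an unadjusted p below 0.05 and a median of 0.019. Without KI5, 1 gene of that list was called lower. Socs3, a brake on cytokine signalling that hepatocytes also induce, rose by 1.59 ± 0.17, and the costimulatory gene Cd80 by 0.34 ± 0.078, a call lost without KI1, WT2 or WT6 and with the mean of all probe sets of the gene. The cytokine genes Tnf and Il1b did not pass (log2 changes -0.051 ± 0.081 and 0.039 ± 0.23, limma adjusted p = 0.708 and 0.933).

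Markers of other cells of the liver were read in the same arrays, and their part in the macrophage result was not tested. The sums are in intensity units, over all measured genes of a list. A few bright genes can make up much of a difference between sums, so a sum does not show a shift of the whole list. Of 10 tested neutrophil genes, 4 rose and 0 fell by limma (5 and 0 at an unadjusted p below 0.05), with a median log2 change of 0.23. They were Retnlg (log2 change 1.01), the decoy receptor gene Il1r2 (0.68), the calprotectin subunit gene S100a8 (0.46) and the gelatinase gene Mmp9 (0.37), the last lost without KI1, KI5, WT2 or WT4. Neutrophil genes were mostly dim. In WT2, WT4 and WT6, Retnlg read 34, 37 and 34, Il1r2 48, 47 and 37, and S100a8 51, 45 and 46. The Y-linked Kdm5d read up to 34. With the filter at the 50th percentile 1 neutrophil gene was tested and 0 were called by limma. The 14 measured neutrophil genes, including those under the filter, summed to 678 to 757 units in wild-type and 914 to 952 in knock-in livers. Of 12 lymphocyte and NK cell genes, Cd79b fell and 0 rose (2 and 0 at an unadjusted p below 0.05), and the summed level was 1096 to 1174 in wild-type and 992 to 1072 in knock-in. Without KI3, 2 genes of this list were called lower. Of 9 dendritic cell genes, Bst2, which interferon also induces, fell and 0 rose (2 and 0 at an unadjusted p below 0.05), with sums of 1332 to 1444 and 1017 to 1127. Bst2 made up a large part of that difference, with 616, 477 and 600 in wild-type and 239, 296 and 255 in knock-in livers. The median log2 change of the list was -0.065. With each array centred on its median, 2 dendritic cell genes were called lower.

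Among 15 genes of sinusoidal endothelium 5 fell, namely Clec4g, the VEGF receptor gene Kdr, Oit3 (log2 changes -0.72, -0.49 and -0.48), and Fcgr2b and Stab2, counted here again, and Lyve1 rose by 1.43 ± 0.35, a call lost without KI5. Kdr lost its call without KI1, WT2 or WT6 and Oit3 without KI1 or WT6. The call of Clec4g held only without KI3 among the fits that left a mouse out, and was also lost with no filter and with the mean of all its probe sets. The number that fell was 7 without KI3, 1 without KI1 or WT2, and 0 by limma without WT6. At an unadjusted limma p below 0.05, 6 endothelial genes were lower and 1 higher. Their sums were 10511 to 11052 in wild-type and 8325 to 10640 in knock-in. Among 14 genes of stellate cells and fibroblasts, the retinol esterification gene Lrat (log2 change -1.16), the collectin gene Colec11 (-0.90) and the intermediate filament gene Vim (-0.49) fell and the proteoglycan gene Dcn (0.49) rose. Colec11 lost its call without KI1, KI5, WT2 or WT6. Vim held only without KI3 among the fits that left a mouse out, and was also lost with no filter. For this list 3 fell and 1 rose (6 and 1 at an unadjusted p below 0.05), and 11 had a log2 change below 0. The sums were 12022 to 12971 and 11770 to 13664. Dcn, which rose, made up a large part of them, with 4891, 4225 and 4704 in wild-type and 6731, 6736 and 5978 in knock-in livers. The number that fell was 1 without KI1, KI5, WT2 or WT6, and 5 without KI3 or with centred arrays. Of 6 cholangiocyte genes 0 passed by limma in either direction, also at an unadjusted p below 0.05, and sums were 510 to 553 and 511 to 576. The smallest p-values there were those of Krt7, Epcam and Sox9 (log2 changes -0.11, -0.087 and 0.096). Of 13 hepatocyte genes 3 rose and 0 fell (5 and 1 at an unadjusted p below 0.05), with sums of 165596 to 169282 and 172408 to 185181. They were the transcription factor gene Hnf4a (log2 change 0.84), the tyrosine aminotransferase gene Tat (0.60) and the cytochrome P450 gene Cyp3a11 (0.33). Hnf4a and Tat made up a large part of the difference in sums. Tat alone read 10256, 13886 and 14210 in wild-type and 20045, 18121 and 19240 in knock-in livers. The median log2 change of the hepatocyte list was 0.035. Cyp3a11 was lost without KI1, KI5, WT2 or WT4 and with centred arrays, and Tat without KI1. In the fit without KI1 1 hepatocyte gene was called higher, and without KI3 or with centred arrays 1 was called lower. Of 3 red cell genes Alas2 fell and 0 rose (1 and 0 at an unadjusted p below 0.05), and sums were 491 to 630 and 332 to 451. Alas2 was not called without WT2 or WT6. It made up a large part of the difference in sums, with 445, 315 and 410 in wild-type and 268, 197 and 149 in knock-in livers. The median log2 change of the red cell list was 0.020. The summed level of the 10 macrophage markers themselves was 4540 to 7995 in wild-type and 2533 to 4944 in knock-in livers.

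**Figure D4:**
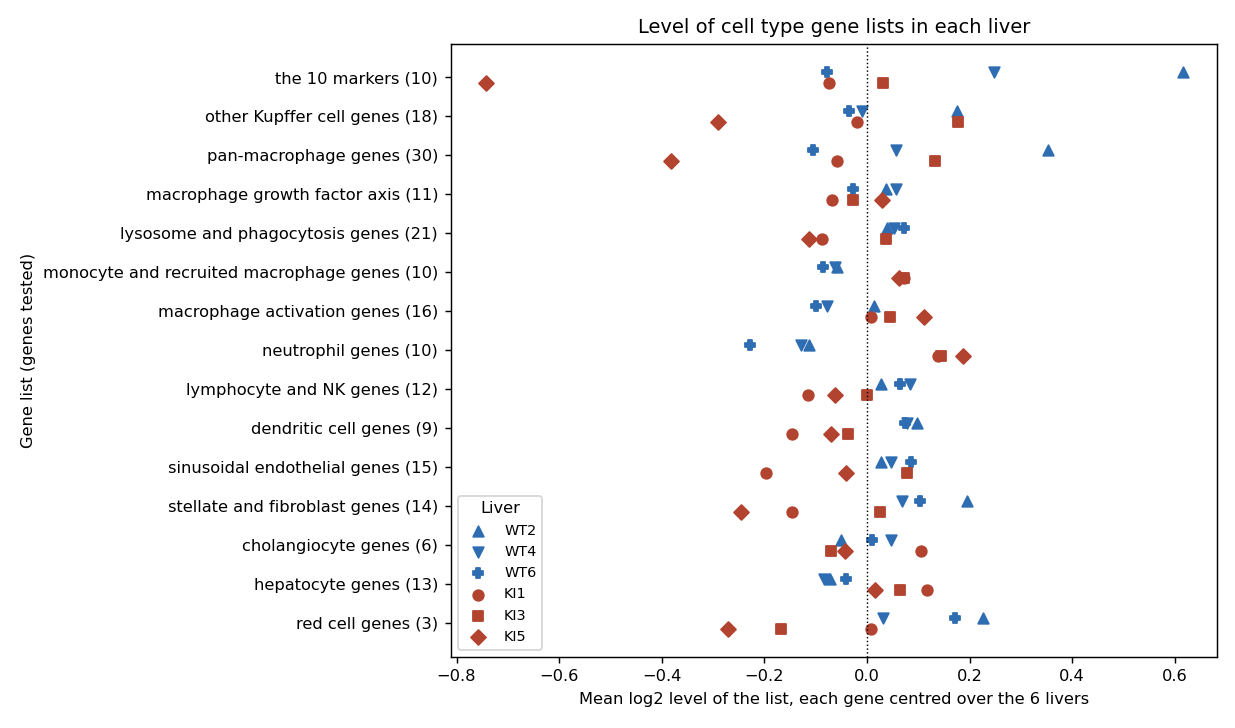
Mean log2 level of each gene list in each liver, with every gene centred over the 6 livers and the number of tested genes in brackets, for wild-type (blue) and knock-in (red). The 10 markers spread from -0.74 in KI5 to 0.62 in WT2, a wider range than that of any other list plotted.

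Among the 12181 brighter probe sets with 1 gene symbol, the 5 whose level over the 6 livers was most like the mean of the 10 markers were those of Dmpk (Pearson r = 0.990), N6amt1 (0.987), Cd300ld (0.987), Ly86 (0.985) and Ckb (0.981). The values share the arrays and the RNA, n is 6 livers, and the best 5 of so many are high by selection, so they are a description. Cd300ld read 260, 188 and 145 in wild-type and 128, 159 and 86 in knock-in livers, and Ly86 read 564, 350 and 280 and then 298, 282 and 158. The 5 genes had log2 changes from -0.65 to -0.096, and none passed (limma adjusted p = 0.114 to 0.512).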

How the data were processed

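Liver RNA of 6 mice was measured on 1-colour arrays, with biotin labelling by in vitro transcription per the labels' protocols. The deposited table holds the authors' probe set intensity values on a linear scale, in whole numbers from 7 to 24988, for 35512 probe sets. Summarisation, background correction and normalization are not given in the sources used here, and detection calls were not used here. Arrays have no read depth, and their number limits the precision. No 2 arrays were identical. Gene names came from the platform's annotation of the probe sets and may be outdated: 21789 had 1 symbol, 1621 several and 12102 none listed.

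Values were tested as log2(intensity + 16) with limma 3.58.1 in R 4.3.3 (eBayes with trend), 3 knock-in against 3 wild-type mice, after leaving out probe sets with a mean under the 25th percentile, and p-values of 26664 probe sets were adjusted by Benjamini-Hochberg, with a threshold of 0.05. Each gene was read from its brightest probe set with 1 symbol. Named genes are the members, and in each list those called and otherwise up to 3 with the smallest p. Ccr2, Il34, Clec1b, Cd163, Tnf, Il1b and Lyz1 were named in addition, after their values were seen. The members and lists were chosen with earlier results of these data known. The procedure was tested on simulated data. Figures used matplotlib 3.10.9.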

Additional observations from a re-analysis of the deposited data

How the results depend on the processing

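Adgre1 and Aif1 were the 2 markers called lower, with 0 called higher, with quantile normalization, a pseudocount of 1 or 64, eBayes without trend, each array centred on its median, and the mean of all probe sets of a gene. The number called lower was 1 (Aif1) with no filter or with a robust prior, 3 of 9 tested (Clec4f, Adgre1 and Lyz2) with the filter at the 50th percentile, which removes Aif1, 4 on probe sets with exactly 1 gene, and 5 at a threshold of 0.1. With array weights 2 were called lower (Clec4f and Aif1) and 1 (Marco) higher, and at a threshold of 0.1 Marco was the 1 called higher. With each mouse left out in turn, 0 to 4 markers were called lower, 0 to 1 higher, and 4258 to 7759 probe sets were called in all, against 6904 with all mice. The log2 change of Vsig4 was -0.45 to 0.14 over these fits, above 0 without KI5 (0.14) and without WT2 (0.026), and not called in any. The other 9 markers kept their direction under all alternatives in which they were tested. Why the counts moved was not tested. No paired analysis was possible because the genotypes share no replicate number.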
